A study of Mus musculus with 4 samples.

Results

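Small mouse embryonic stem (ES) cells were compared after 6 h in 2 media. E14 cells, a wild-type mouse ES line, were sorted one by one by low forward and side scatter, a gate that mostly holds cells that have just left mitosis or are in G1, and were replated on laminin in either 2i or N2B27. 2i holds PD0325901, which inhibits MEK, and CHIR, which inhibits GSK3, and the study also added leukemia inhibitory factor (LIF). N2B27 is the same base medium without these factors, in which cells leave naive pluripotency. Ungated cells of the same line were put through the same change of medium and serve here only as a second view of it. Each of the 4 samples holds 24 single cells sequenced by Smart-seq2, 96 in all.

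Cells were kept with at least 1200000 counts on genes, at least 4400 genes detected and at most 5.2% mitochondrial counts. In 2i 12 of 24 small cells passed these limits and in N2B27 22 of 24, that is 34 small cells of the 77 kept in the series. Of the 12 2i small cells left out, 9 held more counts on the ERCC spike-in RNAs than on genes. Kept small cells had medians of 3331438 gene counts in 2i and 2736309 in N2B27, and of 7603 and 7459 genes. A pair of kept 2i small cells stood apart. One had 15712 genes, against 10069 in the next, and an ERCC share of 0.0673%. The other had an ERCC share of 40.9%, against 17.1% in the next, and 4612 genes. Every ratio was therefore also taken without both. No 2 kept cells had identical counts, and the 48 index pairs of the tables were each used on both plates.

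**Figure D1:**
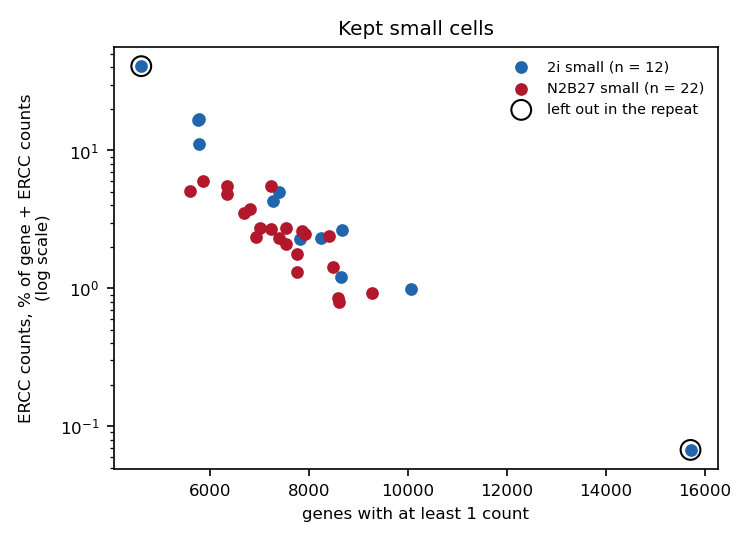
Genes with at least 1 count (x axis) against ERCC counts as a percent of gene and ERCC counts (y axis, log scale) in each kept small cell, 12 in 2i and 22 in N2B27. The circled 2i cells, with 15712 genes and with an ERCC share of 40.9%, lie outside the other cells.

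All 2i cells were on 1 plate and all N2B27 cells on another, so the medium and the plate cannot be told apart. Each medium is 1 sample of small cells, so no p-value was computed. A gene was called when the log2 ratio of its mean normalized counts, N2B27 small over 2i small, was past 1 in size both with all kept cells and without the pair that stood apart. The ratio is on a scale of mean plus 1, which understates the change of low genes. Cells are not replicates, so the counts of called genes below describe these cells only.

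Naive pluripotency is the state of the preimplantation epiblast. In culture it is held by blocking the FGF, MEK and ERK cascade, by blocking GSK3, which lets beta-catenin relieve repression by TCF7L1 and drive Wnt target genes, and by LIF acting through STAT3. When the inhibitors are withdrawn ERK is activated within minutes and its immediate early genes and feedback inhibitors are transcribed. The naive transcription factors decline over the following day, and formative genes such as Fgf5, Otx2 and Dnmt3b are induced. The paper names Tfcp2l1 and Tbx3 among the earliest to fall, and it sampled at 6 h to catch early changes.

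The largest ratio between small cells of the 2 media was in an ERK response gene, Egr1. Etv4, Dusp6, Dusp4 and Spred2 were also higher in N2B27. Of 11 naive network genes measured 10 were not called, and of 6 formative genes 5. A gene counted as measured when the group with the higher mean averaged 20 or more normalized counts and held counts in 50% or more of its cells. Of the 6700 such genes 1002 were called higher in N2B27 small cells (15%) and 799 lower (11.9%), together 26.9%, and the median log2 ratio was -0.03. Many calls rested on few cells. In 412 of the 799 genes called lower (51.6%), 1 cell held over 50% of the signal of the 2i small group, and the same held in N2B27 for 96 of the 1002 called higher (9.58%). With each gene's highest cell of each group left out, 969 of the 1002 and 567 of the 799 were still past the fold. Scaling to ERCC counts instead of gene counts raises most the values of the 2i cell with an ERCC share of 0.0673%. With that cell included, the median of all genes moved to -1.68, and no median without it is given. Only 57 genes were called higher and 472 lower on that scale, by the same rule with and without the pair. Directions below are therefore relative to the bulk of the genes.

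**Figure D2:**
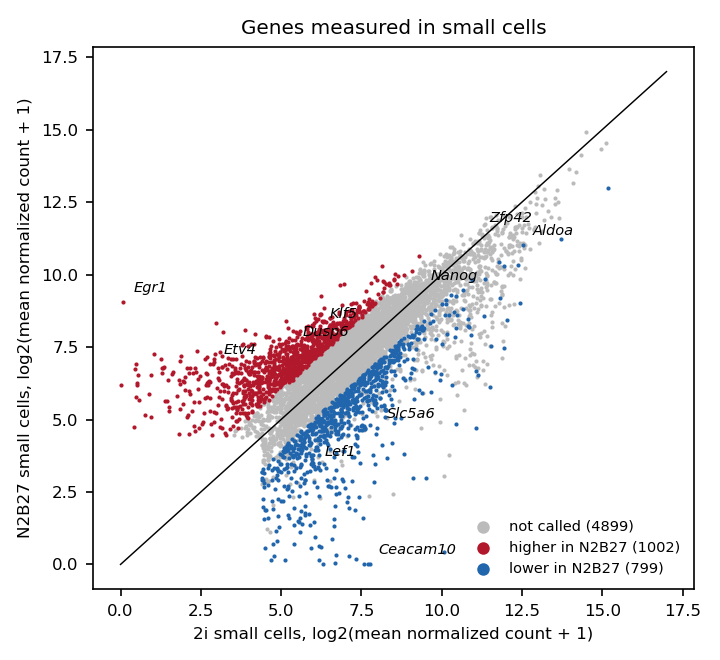
Mean normalized count of each of the 6700 measured genes, plus 1 on a log2 scale, in 2i small cells (x axis) and N2B27 small cells (y axis), with the line of equal means. Red points are the 1002 genes called higher in N2B27, blue points the 799 called lower and grey points the rest; Egr1 lies apart at the upper left and Nanog and Zfp42 near the line.

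Egr1 (chr18:34859823-34864984, GRCm38), an immediate early transcription factor induced through ERK and serum response factor, was close to absent in 2i. Its normalized counts ran from 0, with a median of 0, to 0.77 over the 12 2i small cells and from 0, with a median of 272, to 2567 over the 22 N2B27 small cells. In N2B27, 19 cells held a count, also after thinning every cell to 1400000 counts, and 13 held at least 10 normalized counts (59.1%, exact binomial interval 36.4 to 79.3%). In 2i 1 cell held a count and 0 of 12 held 10 or more, which allows up to 26.5%. The groups thus overlapped only in N2B27 cells with little Egr1. In all, the 2i group held 2 counts (exact Poisson interval 0.242 to 7.22) and the N2B27 group 13878 (13648 to 14111). The log2 ratio was 8.95, and 12.09 from the summed counts without a pseudocount, with an interval of 10.24 to 15.14. These intervals cover counting error only. The ratio was 8.48 among cells called G1, 8.57 among cells called S and 8.47 between ungated cells, where 2i held no count. With no filter on cells it turned to -2.29. Of the 12 2i small cells left out, 1 cell with 383583 gene counts and an ERCC share of 37.5% held 262 Egr1 counts, and no other held more than 1.

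Etv4 (chr11:101769742-101785371), an ETS factor of the FGF and ERK synexpression group, averaged 6.37 normalized counts in 2i and 118 in N2B27. Its level ran from 0, with a median of 0, to 73.8 in 2i and from 0, with a median of 21.2, to 597 in N2B27. At least 10 normalized counts were found in 1 of 12 and 11 of 22 cells, and 1 cell held 96.5% of the 2i signal. The log2 ratio was 4.02, 3.83 without the pair that stood apart, 2.88 on the ERCC scale and 4.21 in ungated cells.

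The phosphatases that switch off ERK were also higher. Dusp6 (chr10:99263231-99267489), which acts on cytoplasmic ERK, had means of 39.2 and 182 (log2 ratio 2.19), with 3 of 12 and 8 of 22 cells at 10 or more. Its cells split into a high and a near-empty class in both media, with maxima of 315 and 988. Among cells called S its log2 ratio was 5.21, and among cells called G1 it was -0.10. Dusp4 (chr8:34807297-34819894), its nuclear counterpart, had means of 26.2 and 112 (2.05), with 2 of 12 and 8 of 22 cells at 10 or more. In ungated cells Dusp6 and Dusp4 had ratios of 2.57 and 2.99.

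Of the 22 ERK response genes listed, 9 were measured, 5 called higher (55.6%, against 15% of all genes), 1 lower (11.1%, against 11.9%) and 3 not called. Their median log2 ratio was 1.34, against -0.03 for all genes, and 0.93 in ungated cells. The fifth called higher was Spred2, an inhibitor of RAF activation, with means of 13.8 and 36.5 (1.34). The gene called lower was Ccnd1, the G1 cyclin D1, with means of 214 and 88.0 (-1.27). Etv5, the partner of Etv4, already averaged 1069 in 2i, against 716 in N2B27. Its ratio of -0.58 became 0.32 without the pair that stood apart, since the cell with the highest ERCC share held 52.6% of its 2i signal. Ier2, an immediate early gene, had 255 and 518 (1.02, and 0.87 without the pair). Spry2, a feedback inhibitor of receptor signalling, had 147 and 114 (-0.37). The other 13 members were too rarely detected to be measured. Fos held counts in 1 of 12 and 5 of 22 cells, and 3 N2B27 cells reached 10 normalized counts. Spry4 reached 10 in 0 of 12 and 7 of 22 cells. A cell held a median of 3 of the 9 measured members at 10 or more normalized counts in 2i and of 4 in N2B27. The ERK members were thus not raised together in every cell. On the ERCC scale 4 members were higher and the median was 0.31, against -1.68 for all genes.

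**Figure D3:**
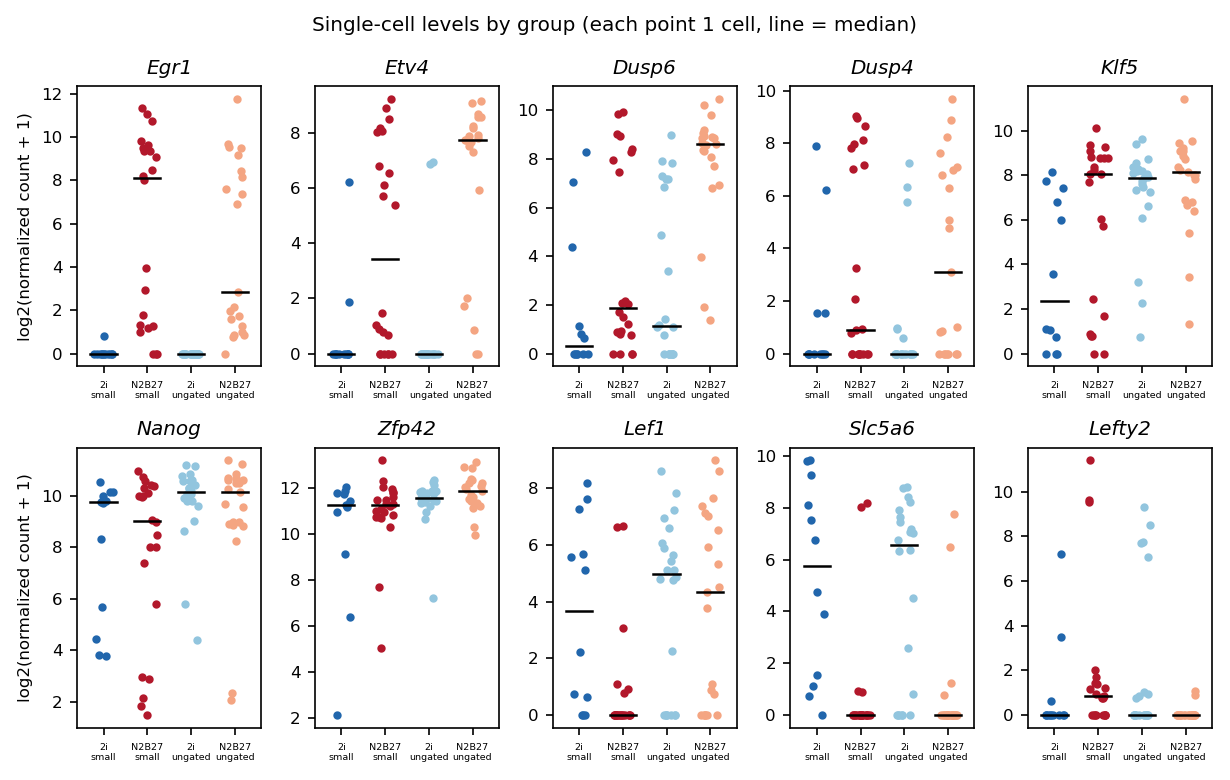
Normalized counts plus 1 on a log2 scale (y axis) of 10 genes in every kept cell of the 4 groups, with the group median as a line. Egr1 is near 0 in all 2i cells and spread over the whole range in N2B27 cells, and Lefty2 is high in 3 N2B27 small cells and in none of the N2B27 ungated cells.

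Wnt target genes, which GSK3 inhibition drives, held few measured members. Of the 16 listed, 3 were measured, 1 called higher and 2 lower (33.3% and 66.7%, against 15% and 11.9% of all genes), with a median of -2.06. Lef1 (chr3:131110471-131224356), the TCF family factor that is itself a target, ran from 0, with a median of 18.6, to 287 in 2i and from 0, with a median of 0, to 100 in N2B27. At least 10 normalized counts were found in 6 of 12 and 2 of 22 cells, and the log2 ratio was -2.63. In ungated cells Lef1 did not follow (0.46). Notum, a secreted carboxylesterase that inactivates Wnt, had means of 68.4 and 15.6, with a ratio of -2.06, and of -2.47 between ungated cells. Znrf3, a ligase that removes Wnt receptors, was higher (1.44), with 53.3% of its N2B27 signal in 1 cell. It was lower on the ERCC scale (-1.29) and among cells called G1 (-1.14). Sp5 was under the detection limit set for a measured gene, but its signal among kept small cells was almost wholly in 2i. The 2i small cells held 633 counts of it, and 4 of them reached 10 normalized counts, whereas N2B27 small cells held 1 count. The log2 ratio of Sp5 was -5.27, but 0.10 with no filter on cells, and -2.73 in ungated cells. Axin2, the common feedback target, had means of 14.8 and 2.61, with 2 of 12 and 1 of 22 cells at 10 or more. Its log2 ratio of -2.13 turned to 1.10 among cells called G1, and it was 1.34 in ungated cells.

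The promoters of Sp5, which was not called, and of Anxa2, a gene higher in N2B27 in both gates that is described below, are shown as examples. These genes and the motifs marked in them were chosen by name and not by a rule. Both windows run from 250 bases before to 50 bases after the transcription start in RefSeq (GRCm38.p6), and 84 of the 116 genes named or tabulated have such an entry. In Sp5 (chr2:70474673-70474972, plus strand) capitals mark CTTTGAT and also CTTTGTT, on either strand, which the TCF and LEF factors bind. 9.33% of 32851 promoters hold at least one of them. In Anxa2 (chr9:69453433-69453732, plus strand) capitals mark TGANTCA on either strand, bound by AP-1 (FOS and JUN), which 7.81% hold. A match is a description of the sequence and not a site shown to be bound.
Sp5: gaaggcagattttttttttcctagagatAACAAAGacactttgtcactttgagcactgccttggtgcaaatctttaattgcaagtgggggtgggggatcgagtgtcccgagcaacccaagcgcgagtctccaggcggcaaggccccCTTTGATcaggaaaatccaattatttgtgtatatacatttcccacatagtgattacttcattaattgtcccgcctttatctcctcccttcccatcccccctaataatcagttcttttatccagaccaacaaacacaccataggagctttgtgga
Anxa2: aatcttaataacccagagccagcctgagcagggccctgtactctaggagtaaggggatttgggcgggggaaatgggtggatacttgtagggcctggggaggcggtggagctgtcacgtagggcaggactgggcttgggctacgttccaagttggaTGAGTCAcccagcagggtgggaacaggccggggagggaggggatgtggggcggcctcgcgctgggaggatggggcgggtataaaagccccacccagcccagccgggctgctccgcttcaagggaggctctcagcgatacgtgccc
Sp5 held 2 matches and Anxa2 held 1.

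The naive network was centred near a ratio of 0. Of 15 genes listed, 11 were measured, 1 called higher (9.09%, against 15% of all genes) and none lower, with a median log2 ratio of 0.02. Nanog (chr6:122707489-122714633), the homeobox factor of the naive state, ran from 12.7, with a median of 854, to 1482 in 2i and from 1.80, with a median of 521, to 1974 in N2B27 (0.11). At least 10 normalized counts were found in 12 of 12 and 17 of 22 cells, so a set of N2B27 cells lay below every 2i cell. Zfp42, which encodes REX1, had medians of 2471 and 2450 (0.27). Esrrb, an orphan nuclear receptor of the network, had a ratio of 0.02 and Tfcp2l1, a target of LIF and of GSK3 inhibition, of -0.42. Tfcp2l1 had medians of 80.1 in 2i and 1.37 in N2B27, with 7 of 12 and 7 of 22 cells at 10 or more. Its ratio was -2.11 with means of log2 values, and 0.05 between ungated cells with means. Klf2, a factor stabilised when MEK is blocked, had means of 1009 and 271 (-1.89). It was not called, since 61.6% of its 2i signal was in the cell with the highest ERCC share and the ratio without the pair was -0.73. Klf4, too rarely detected to be measured, held at least 10 normalized counts in 2 of 12 and 6 of 22 cells (0.46). A single cell held 92.5% of its 2i signal, and another 59.3% of its N2B27 signal. Its ratio was -4.85 among cells called G1, 1.46 among cells called S and -2.43 in ungated cells. The member called higher was Klf5 (chr14:99298691-99315036), with means of 71.1 and 280 (1.96). Its level ran from 0, with a median of 6.03, to 282 in 2i and from 0, with a median of 265, to 1113 in N2B27, and 6 of 12 and 15 of 22 cells reached 10. Its ungated ratio was 0.74. The counts of this list turned on how cells are summarised: with means of log2 values in place of means, 4 members were lower and 1 higher. With that summary, 1509 of all 6700 genes measured were lower and 861 higher.

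Tbx3, a T-box factor of the network under LIF control, had means of 20.6 and 21.0, too rarely detected to be measured. At least 10 normalized counts were found in 5 of 12 2i small cells (41.7%, exact interval 15.2 to 72.3%) and 3 of 22 N2B27 small cells (13.6%, 2.91 to 34.9%). Its ratio of 0.03 rested on 1 N2B27 cell with 72.4% of the signal. With each group's highest cell left out it was -1.23, and the ungated ratio was -1.38. These intervals cover the counting of cells in 1 sample per medium, so the difference between the media was not tested.

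All 13 general pluripotency genes were measured, 3 of them called higher (23.1%, against 15% of all genes) and none lower (median 0.55). Pou5f1, which encodes OCT4, had medians of 221 and 274 (0.55), and Sox2, its partner, had means of 110 and 113 (0.04). The members called higher were Lin28a, an inhibitor of let-7 maturation (2.37), Zfp281, a zinc finger factor needed for exit from the naive state (1.31), and Dppa2, a chromatin factor (1.22). Zfp281 and Dppa2 turned to -0.26 and -1.24 on the ERCC scale, where the median of all genes was -1.68. On that scale, with all kept cells, 25 of the 86 called genes named or tabulated here changed sign. These ratios include the 2i cell with an ERCC share of 0.0673%.

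Of 22 formative and primed genes, 6 were measured and 1, Dnmt3a, was called higher (16.7%, against 15% of all genes). This de novo DNA methyltransferase had means of 34.5 and 334 (3.24), with 5 of 12 and 12 of 22 cells at 10 or more, and an ungated ratio of 0.65. Its paralog Dnmt3b had means of 164 and 97.6 (-0.74) and Otx2, a homeobox factor of the formative state, 31.0 and 21.6 (-0.50), with 1 cell holding 89.8% of the N2B27 signal. Fgf5, a growth factor of the postimplantation epiblast, reached 10 normalized counts in 1 of 12 and 1 of 22 cells. Of 10 DNA methylation genes 8 were measured, 3 called higher and 1 lower (37.5% and 12.5%, against 15% and 11.9% of all genes). Besides Dnmt3a these were Dnmt1, the maintenance methyltransferase (2.10), and Tet1, a 5-methylcytosine dioxygenase (1.55), against its relative Tet2 (-2.35), of which 82.6% of the 2i signal lay in 1 cell. Dnmt1 went the other way in ungated cells (-1.44).

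Of 17 genes of the Nodal pathway 8 were measured, 3 called higher (37.5%, against 15% of all genes) and none lower. Their median was 0.86, and 0.03 in ungated cells. Nodal, the ligand, had means of 169 and 266 (0.65). Acvr2b, a type II receptor, had 9.97 and 96.6 (3.15). Skil, a corepressor of SMADs, had 33.9 and 81.1 (1.23), and was on the other side in ungated cells (-1.07). Lefty2 (chr1:180893108-180899103), a secreted inhibitor of Nodal, ran from 0, with a median of 0, to 145 in 2i and from 0, with a median of 0.78, to 2707 in N2B27. At least 10 normalized counts were found in 2 of 12 and 3 of 22 cells (16.7% and 13.6%). The ratio of 3.80 came from 3 N2B27 cells, of which 1 held 63.6% of the signal. With each group's highest cell left out it was 5.23. In ungated cells the ratio was -6.02, where 5 of 22 2i cells and 0 of 21 N2B27 cells reached 10. Lefty1, its near copy, had means of 33.5 and 39.8 (0.24), with 2 of 12 and 1 of 22 cells at 10 or more. A single cell held 96.1% of its 2i signal and another 99.9% of its N2B27 signal. Reads shared by both copies could not be assigned.

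Of 14 FGF pathway genes 6 were measured, and the adaptors Grb2 (2.59) and Shc1 (1.85), which couple receptors to RAS, were called higher. That is 33.3% of the measured members, against 15% of all genes. Grb2 reached 10 normalized counts in 4 of 12 and 13 of 22 cells. Fgf4, the main ligand of ES cells, and its receptor Fgfr1 had ratios of 0.05 and -0.03. Grb2 turned to -0.23 on the ERCC scale and to -4.30 with no filter on cells. Among LIF and STAT3 genes 4 of 11 were measured, and Klf5 was the member called higher (25%, against 15% of all genes). Of 12 BMP and Id genes 4 were measured, and 1 was called lower (25%, against 11.9% of all genes). This was Bmpr1a, a type I receptor (-3.94), with 70.8% of the 2i signal in 1 cell and a ratio of 0.56 among cells called S.

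**Figure D4:**
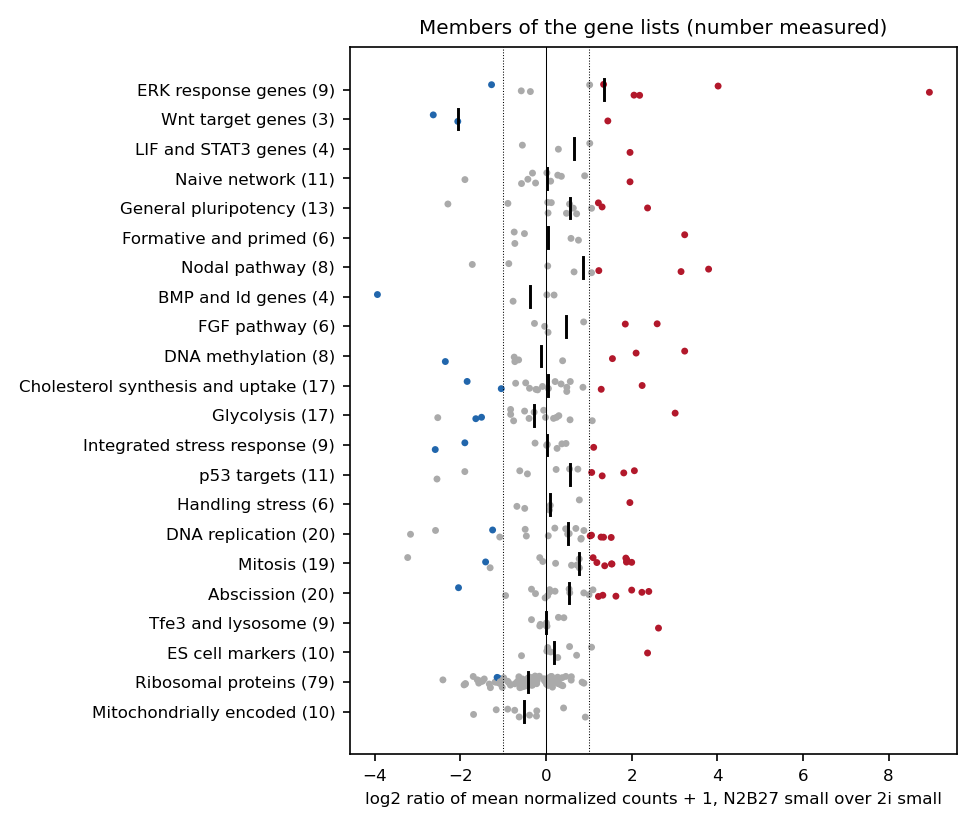
Log2 ratio of mean normalized counts plus 1, N2B27 small over 2i small (x axis), of the measured members of each gene list with at least 3 of them (number in brackets), red where called higher and blue where called lower, with the median as a black bar and dotted lines at a 2-fold change. ERK response genes reach furthest to the right, and the naive network is centred on 0.02.

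Genes of the cell cycle held more calls higher than lower in N2B27 small cells, although most members were not called. By cyclone, a classifier that uses pairs of genes, 6 of 12 2i small cells were in G1 (50%, exact interval 21.1 to 78.9%), 5 in S and 1 in G2/M. In N2B27 7 of 22 were in G1 (31.8%, 13.9 to 54.9%), 12 in S and 3 in G2/M. Cells called G1 had a median ERCC share of 10.5% in 2i and 4.81% in N2B27. Of 20 mitosis genes 19 were measured, 9 called higher (47.4%) and 1 lower, against 15% and 11.9% of all genes (median 0.78, and 0.22 in ungated cells). Ccna2, the S and G2 cyclin, had medians of 127 and 635 (1.88). Aurkb, the kinase of the chromosomal passenger complex, had means of 90.4 and 365 (2.00). Tpx2, a spindle factor, and Cenpf, a kinetochore protein, had ratios of 1.89 and 1.86. Of 22 DNA replication genes 20 were measured, 5 called higher (25%) and 1 lower (median 0.52, ungated 0.12). Mcm4, of the replicative helicase, had a ratio of 1.52, Slbp, which binds histone mRNA, of 1.29, and Chaf1a, a histone chaperone, was the member called lower (-1.25). Of 23 genes of abscission, the last step of division, 20 were measured, 6 called higher (30%) and 1 lower (median 0.55, ungated 0.06). These included Anln, a scaffold of the contractile ring (2.40), and Kif23, a centralspindlin motor (2.24). Cep55, which recruits the ESCRT machinery to the midbody, had a ratio of 0.54, and Chmp2b, an ESCRT-III subunit, of -2.04. Calls also need the ratio with all kept cells, and on the ERCC scale none of the mitosis, replication or abscission members was called higher. Among cells called S alone, 10 mitosis members were higher and none lower, and among cells called G1 alone 5 and 3. Over all genes, 1583 of 7225 measured were higher and 1175 lower among cells called S. Among cells called G1, 1434 of 5963 measured were higher and 1511 lower. The part of phase in these values was not tested.

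Metabolic and stress genes were listed as well, and their shares of calls are to be read against 15% higher and 11.9% lower over all genes. Of 19 glycolysis genes 17 were measured, 1 called higher (5.88%) and 2 lower (11.8%), with a median of -0.28. Aldoa (chr7:126795234-126800751), the aldolase and the most abundant gene called in these lists, ran from 153, with a median of 4672, to 21192 in 2i and from 12.3, with a median of 1180, to 6789 in N2B27. It was detected in every cell of both groups, which overlapped, and the log2 ratio was -1.51 (ungated -0.86). Hk2, a hexokinase, was lower (-1.64) and Pfkp, a phosphofructokinase, higher, with medians of 19.4 and 463 (3.01). Of 24 genes of cholesterol synthesis and uptake 17 were measured, 2 called higher and 2 lower (11.8% each, median 0.06). Srebf2, the factor that drives them, had a ratio of 2.24, and its target Pmvk of -1.84. Of 18 genes of the integrated stress response 9 were measured, with 1 called higher (11.1%) and 2 lower (22.2%). Atf4, its effector, was the one higher (1.11), and Ppp1r15a and Nupr1 were lower (-1.89 and -2.59). Of 14 p53 targets 11 were measured, 4 called higher (36.4%) and none lower, with a median of 0.55 and of -0.14 in ungated cells. They were led by Trp53inp1 (2.06), which went to -2.14 in ungated cells. Of 13 genes of handling stress 6 were measured and Gadd45b was higher (1.96). Of 13 genes of Tfe3 and the lysosome 9 were measured and Rragc, a GTPase that signals amino acids to mTORC1, was higher (2.63).

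Ribosomal protein genes had a median of -0.42, with 79 of 82 measured, none called higher and 2 lower (2.53%, against 11.9% of all genes). The median was 0.08 without the pair that stood apart. The 10 measured mitochondrially encoded genes had a median of -0.51, and -0.18 without the pair, and none was called. Markers of other cell types were rare. Of the lists for primitive endoderm, trophectoderm, mesendoderm and fibroblasts, and of the 2-cell-like list, no gene was measured. All 10 ES cell markers were measured, with 1 called higher (10%, against 15% of all genes) and none lower. The summed level of the 9 trophectoderm markers ran from 0 to 468 in 2i and from 0 to 494 in N2B27, that of the 7 mesendoderm markers from 0 to 1028 and 0 to 290, and that of the 12 primitive endoderm markers from 0 to 132 and 0 to 279. Their part in the results was not tested. Of 8 neural markers, Tubb3 was lower (-2.95) and Pax6 higher (1.25).

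Among small cells, the genes with the largest ratios were mostly on in a few cells of 1 medium. After Egr1, the 11 protein-coding genes with the largest increase were Ptprs, Pla2g7, Plec, Zfp791, Tcaf1, Plcg1, Slc37a1, Cavin1, Net1, Rmnd5a and Grb7, with log2 ratios of 5.47 to 6.46. Ptprs (chr17:56412426-56476483), a receptor tyrosine phosphatase, was on in the most cells of these. It reached 10 normalized counts in 0 of 12 and 12 of 22 cells, with maxima of 4.62 and 683. Plcg1, a phospholipase activated by receptor tyrosine kinases, reached 10 in 0 of 12 and 8 of 22 cells, and Cavin1, a coat protein of caveolae, in 0 of 12 and 7 of 22. Zfp791 held no count in 2i small cells and was at least 434-fold higher, against a floor of 3 counts over the group, but only 2 N2B27 cells reached 10, and its log2 ratio of 6.18 was 4.84 with the highest cell left out. Tcaf1 did so in 3 cells, and among cells called S it turned to -0.42. In ungated cells the 11 ratios were, in the order listed, 2.12, 6.60, 0.52, 0.93, -3.46, 1.16, 0.43, 3.07, -0.60, -1.48 and -0.07.

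The 12 with the largest decrease were Dpysl2, Ceacam10, Frk, Lcorl, Ppip5k2, Aldh1l1, Fbxo4, Fbxo9, Lrrc15, Stat2, Klhdc10 and Ralgapa2, with log2 ratios of -7.76 to -5.43. One cell held from 57.1% (Lrrc15) to 99.3% (Frk) of the 2i small signal of each. Dpysl2, Ceacam10, Frk and Fbxo9 held no count in N2B27 small cells and were at least 1934-, 1861-, 1702- and 706-fold lower against the same floor. With each group's highest cell left out, however, the log2 ratio was -2.92 for Dpysl2, -6.48 for Ceacam10, -1.26 for Frk and -4.45 for Fbxo9, and that of the other 8 ran from -5.24 to -4.30. Ceacam10 (chr7:24777206-24784657), a cell surface glycoprotein, reached 10 normalized counts in 5 of 12 2i small cells, and it was also without a count in N2B27 ungated cells. Frk held no count in ungated cells of either medium. The ungated ratios of the other genes were, in the order listed, -0.67, -3.64, -2.77, -0.74, 1.12, -1.98, -0.06, -1.31, 0.06, -0.84 and 1.09.

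In ungated cells the same ratio was past 1 for 4.67% and past -1 for 7.37% of the 6700 genes. Of the 1002 genes called higher in small cells, 107 (10.7%) were past the fold in the same direction in ungated cells and 92 in the opposite one. Of the 799 called lower, 140 (17.5%) were past it in the same direction and 54 in the opposite one. The 2 gates share no cells, but they share the 2 plates. Among the 101 protein-coding genes higher in both gates, chosen here after their values were seen, were Egr1, Etv4, Pla2g7, Cavin1, Anxa2, Htra1, Hbegf and Bbx. Pla2g7, a secreted phospholipase, had a small-cell ratio of 6.29 and an ungated one of 6.60, and 2i ungated cells held no count of it. Anxa2, a calcium-dependent membrane protein, had 3.64 and 2.69, with 63.0% of its N2B27 small signal in 1 cell. It reached 10 normalized counts in 2 of 12 and 5 of 22 small cells. Htra1, a secreted protease, had ratios of 5.45 and 2.53, and Hbegf, a ligand of the EGF receptor, of 2.59 and 3.85. The 8 genes of this kind with the largest decrease of 136, chosen in the same way, included Slc5a6, Runx1t1 and Nr1d1. Slc5a6 (chr5:31036036-31048924), a carrier of biotin and pantothenate, was lower in many cells. It ran from 0, with a median of 67.0, to 907 in 2i and from 0, with a median of 0, to 288 in N2B27. At least 10 normalized counts were found in 8 of 12 and 2 of 22 cells, and in 14 of 22 and 2 of 21 ungated cells, with ratios of -3.28 and -3.05. Runx1t1, a corepressor, reached 10 in 7 of 12 and 1 of 22 small cells (-4.56, ungated -2.53). Nr1d1, which encodes the clock repressor REV-ERB alpha, had ratios of -2.69 and -2.82.

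**Figure D5:**
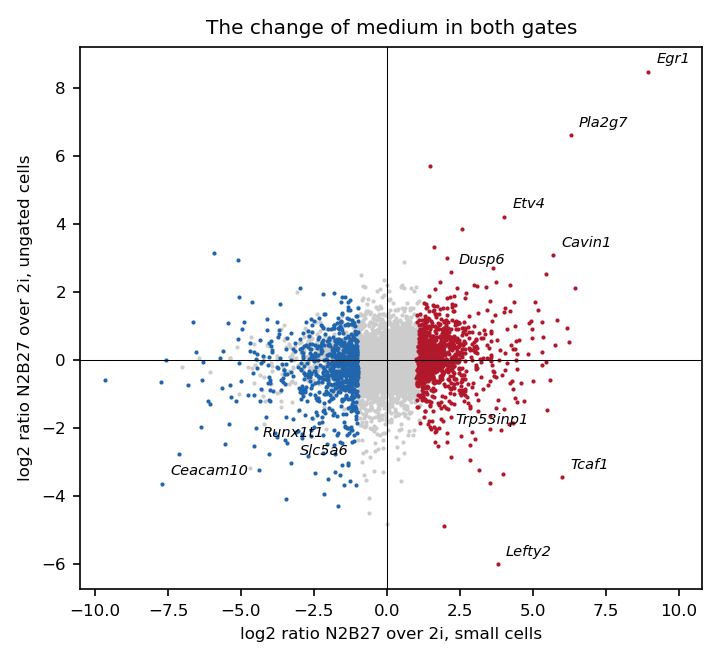
Log2 ratio of N2B27 over 2i in small cells (x axis) and in ungated cells (y axis) of the 6700 genes measured in small cells, red where called higher in small cells, blue where called lower and grey otherwise. Egr1, Pla2g7 and Etv4 lie at the upper right in both gates, whereas Lefty2, Tcaf1 and Trp53inp1 have ratios of opposite sign.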

How the data were processed

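Single mouse ES cells were sequenced by Smart-seq2, paired-end and without molecular identifiers. The authors trimmed reads with Trim Galore 0.4.4, aligned them to GRCm38 with GSNAP and counted them with HTSeq on Ensembl genes, and deposited raw counts per gene for 48 cells per medium. HTSeq leaves out reads shared by genes, so near-identical copies are undercounted. The deposited counts were used as they are. Of all counts 72.4% were on genes, 3.85% on ERCC spike-ins and 23.8% on rows that name neither, which were left out. Columns were matched to samples through the authors' list of runs. Size factors came from DESeq2 1.42.0 over the 77 kept cells, from 1216 genes found in every cell, and phases from cyclone in scran 1.30.0 (R 4.3.3). Ratios, intervals and plots used Python 3.11.15, numpy 2.4.6, pandas 2.3.3, scipy 1.17.1 and matplotlib 3.10.9. The ratio and the call were run on simulated counts with known changes, and no rate of false calls is drawn from them here. No doublet caller was run on these singly sorted cells.

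The pseudocount was 1 and intervals are exact 95% intervals that cover counting error only. The study's DESeq2 p-values take cells as replicates and were not repeated. Genes named are Egr1, Lefty2 and Tbx3, the 12 protein-coding genes called in each direction with the largest smaller ratio of the 2 cell sets, up to 4 called members per list (up to 2 of the highest mean where none was called), genes a sentence on a pathway needs, and others stated as chosen after their values were seen. Members and lists were chosen with earlier results of these data known. A gene of the cholesterol list is not reported here. Alternatives covered the scaling, the summary over cells, the cells kept, depth, phase, pseudocount and filters.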

Additional observations from a re-analysis of the deposited data

Results flagged for a closer look

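Genes named or tabulated here with a ratio of N2B27 over 2i past 2-fold in small cells and past it in the opposite direction in ungated cells are given because the direction differs. Their log2 ratios were Aldh1l1 (-6.64 in small cells, 1.12 in ungated cells), Dnmt1 (2.10 in small cells, -1.44 in ungated cells), Lefty2 (3.80 in small cells, -6.02 in ungated cells), Ralgapa2 (-5.43 in small cells, 1.09 in ungated cells), Rmnd5a (5.49 in small cells, -1.48 in ungated cells), Rpl17 (-1.14 in small cells, 1.02 in ungated cells), Skil (1.23 in small cells, -1.07 in ungated cells), Tcaf1 (6.00 in small cells, -3.46 in ungated cells), Trp53inp1 (2.06 in small cells, -2.14 in ungated cells), Znrf3 (1.44 in small cells, -1.81 in ungated cells). These differences were not tested, as every group is 1 sample. For Lefty2, Tcaf1 and Trp53inp1, 1 cell held 63.6%, 64.8% and 61.0% of the N2B27 small signal, and for Ralgapa2 and Aldh1l1, 1 cell held 89.1% and 78.9% of the 2i small signal.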

How the results depend on the processing

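No paired analysis was possible because each condition is 1 sample and the labels give no replicate numbers that pair cells. The number of genes called higher (1002) and lower (799) stayed within 1.5 times under most alternatives. It was outside with ERCC size factors (57 and 472), with no minimum share of cells (2191 and 1371) and with at least 10 normalized counts in at least 50% of cells of the higher group, an alternative chosen after seeing the data (365 and 434). The number higher was also outside among cells called S (1583), and the number lower with means of log2 values (1509), with no filter on cells (1255), among cells called G1 (1511) and with all kept cells alone, also chosen after seeing the data (1276). A count does not say which genes: with no filter on cells 64.3% of the genes called higher and 35.9% of those called lower were called again, and among S cells 62.8% and 46.9%. With ERCC size factors and all kept cells, the median of the naive network moved to -1.64 and that of mitosis genes to -1.504. The median of all genes was -1.68 there. DESeq2 poscounts size factors moved that median to 0.12.

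The ratios in this paragraph were taken before the pair that stood apart was left out. On the ERCC scale they include the 2i small cell with an ERCC share of 0.0673%. Of the 86 genes named or tabulated that were called, these turned in sign. With ERCC size factors they were Anln (-0.98), Anxa2 (-0.39), Atf4 (-1.31), Aurkb (-1.25), Ccna2 (-1.09), Cdc45 (-1.47), Cenpf (-1.504), Dnmt1 (-1.25), Dppa2 (-1.24), Eda2r (-1.79), Gadd45b (-1.05), Grb2 (-0.23), Kif23 (-1.46), Mcm4 (-0.96), Pax6 (-0.20), Rragc (-1.79), Skil (-1.13), Slbp (-1.77), Srebf2 (-0.42), Tet1 (-0.64), Tpx2 (-0.44), Trp53inp1 (-1.44), Zfp281 (-0.26), Zmat3 (-0.39) and Znrf3 (-1.29). With no filter on cells they were Atf4 (-0.014), Aurkb (-0.73), Btg2 (-1.97), Dnmt3a (-1.94), Egr1 (-2.29), Grb2 (-4.30), Kif23 (-0.30) and Plec (-4.89). Among cells called S they were Bmpr1a (0.56), Cdc45 (-0.15), Eda2r (-0.016), Hk2 (1.11), Rpl17 (0.39), Rpl36a (0.085), Taok2 (0.54), Tcaf1 (-0.42) and Tet2 (1.4998), and among cells called G1 Dusp6 (-0.10) and Znrf3 (-1.14). With means of log2 values it was Eda2r (-0.44). The causes were not tested. The number of cells limits shares: 0 of 12 cells allows up to 26.5%.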
